A study of Caenorhabditis elegans with 2 samples.

Results

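The 78 genes described here carry names given to genes for proteins of the cytosolic ribosome of the nematode Caenorhabditis elegans. They were chosen by name, as protein-coding genes called rpl- or rps- and a number in the Ensembl annotation. They make up 78 of 19985 annotated protein-coding genes, with 47 rpl- genes for the large subunit and 31 rps- genes for the small subunit. The measurement was ChIP-seq, in which DNA bound by a protein is immunoprecipitated and sequenced, for the homeodomain factor CEH-22 in whole late embryos of mixed sex. There was 1 group of 2 biological replicates of strain OP389, which carries the mutation unc-119(tm4063) on chromosome III and the insertion wgIs389, a stable transgene for CEH-22 fused at its C-terminus to GFP and FLAG. The promoter of the transgene and the cells that express it are not stated in the labels, the antibody is listed as ceh-22, and the control samples were not analysed here. Whole animals were used, so the signal mixes all cell types.

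Ribosomal proteins assemble with ribosomal RNA into the subunits that carry out translation. The small subunit decodes the messenger RNA, and the large subunit joins amino acids into the growing chain. Their genes are short and among the most strongly transcribed genes of growing cells, and many nematode messages from them receive a spliced leader by trans-splicing. CEH-22 belongs to the NK-2 class of homeodomain proteins and has a known role in turning on pharyngeal muscle genes, in the organ with which the worm feeds.

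The authors' lists on genome build ce11 held 285 regions after the reproducibility threshold (the thresholded list), 19644 regions for the pooled reads of both replicates, and 30000 regions in each replicate. The pooled and replicate lists are relaxed and include background regions. Each region carries a signal value, a score from the authors' peak caller on a scale not stated, so it was used for ranks within a list, with rank 1 the strongest. Read depth is unknown from these lists. In ceh-22 itself, the gene that the transgene also carries, the strongest region had rank 2 in all 3 relaxed lists. A gene was counted as having a region when a summit, the highest point of the region, lay between 1000 bp upstream and 200 bp downstream of its annotated 5′ end.

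Thresholded summits lay upstream of 5 of the 78 ribosomal protein genes. These were rpl-3, rpl-35, rpl-20 and rpl-11.2 of the large subunit and rps-1 of the small subunit. The share was 6.41% (95% Wilson interval 2.77 to 14.1), against 0.746% of all protein-coding genes, that is 149 of 19985. Intervals here cover counting error over genes only, and neighbouring genes can share a region. Each of the 5 summits was upstream of the gene and in intergenic DNA, at 269 to 453 bp, and none lay within 200 bp of a tRNA, snRNA, snoRNA or rRNA gene. Among thresholded window regions of other genes, 90 of 109 (82.6%) were intergenic and 14 of 109 (12.8%) lay near such a gene, so 5 regions are too few to show a difference.

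The rpl-3 gene, which encodes a large subunit protein near the catalytic centre in yeast, had the strongest region of the family. It spans chrIII:3867371-3867714 with its summit 311 bp upstream. Its signal value was 59.8 in the pooled list, 26.3 in replicate 1 and 33.8 in replicate 2, which gave ranks 42, 48 and 62 in the same order. The product of rpl-35 sits near the exit of the nascent chain in yeast. Its region lay 453 bp upstream (chrIII:7854509-7854852), with signal values of 58.6 pooled, 26.9 in replicate 1 and 29.3 in replicate 2, and ranks 43, 43 and 83. The region of rps-1 lay 269 bp upstream (chrIII:4475477-4475820), with 53.5 pooled, 26.6 in replicate 1 and 26.1 in replicate 2, and ranks 57, 44 and 132. These 3 genes, all on chromosome III, were the members among the 285 strongest regions of both replicates. That is 3.85% of the family, and 0.32% of all protein-coding genes met the same condition.

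The other thresholded members were weaker, and the ranks of rpl-11.2 differed most between replicates. The region of rpl-20 lay 288 bp upstream and had signal values of 35.9 pooled, 10.8 in replicate 1 and 18.0 in replicate 2, with ranks 203, 763 and 636. Its summit was closer to another gene, 174 bp from the 5′ end of Y17G9B.5. The region of rpl-11.2, whose product joins the 5S ribosomal RNA particle in other species, lay 411 bp upstream and had 34.7 pooled, 8.52 in replicate 1 and 24.6 in replicate 2, with ranks 221, 1548 and 160. The rpl-11.2 gene is on the X chromosome, and it was the member just inside the threshold. The last region inside the thresholded list had a signal value of 32.2, and the first member outside it was rps-12, at 29.8.

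The sequences under the 5 thresholded summits are shown, with that of rpl-15, another strong member, chosen because it holds some of the same short words. Each runs from 100 bases before to 100 bases after the pooled summit, 5′ to 3′ on the strand of the gene, from the RefSeq genome of assembly WBcel235, which is ce11. Capitals mark the word AGTGTA, the word TACGGTA and the word TAAATCG, on either strand. None of these marked words is in all of the windows shown. The shorter word AAGTG, which is not marked, is in each of them and is described below. The window of rps-12, whose region was slightly stronger than that of rpl-15, held TAAATCG but neither of the other marked words nor AAGTG.
rpl-3 (chrIII:3867443-3867643, plus strand): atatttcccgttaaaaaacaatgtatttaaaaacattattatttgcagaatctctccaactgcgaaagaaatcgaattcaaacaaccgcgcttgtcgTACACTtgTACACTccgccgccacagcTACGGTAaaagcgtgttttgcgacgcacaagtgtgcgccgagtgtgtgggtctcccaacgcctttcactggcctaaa
rpl-35 (chrIII:7854581-7854781, plus strand): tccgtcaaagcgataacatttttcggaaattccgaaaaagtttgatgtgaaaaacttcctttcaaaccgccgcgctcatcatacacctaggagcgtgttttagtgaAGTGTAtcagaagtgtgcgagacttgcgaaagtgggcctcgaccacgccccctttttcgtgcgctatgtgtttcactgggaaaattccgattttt
rps-1 (chrIII:4475549-4475749, plus strand): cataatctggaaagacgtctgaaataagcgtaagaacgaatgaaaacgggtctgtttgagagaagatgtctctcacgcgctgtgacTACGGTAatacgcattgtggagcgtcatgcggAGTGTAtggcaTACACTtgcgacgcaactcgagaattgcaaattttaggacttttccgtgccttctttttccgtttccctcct
rpl-20 (chrIV:4749966-4750166, minus strand): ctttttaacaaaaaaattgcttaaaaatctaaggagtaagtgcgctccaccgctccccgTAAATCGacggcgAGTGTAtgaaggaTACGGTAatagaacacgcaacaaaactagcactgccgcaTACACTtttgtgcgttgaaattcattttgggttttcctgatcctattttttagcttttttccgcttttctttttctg
rpl-11.2 (chrX:2242929-2243129, minus strand): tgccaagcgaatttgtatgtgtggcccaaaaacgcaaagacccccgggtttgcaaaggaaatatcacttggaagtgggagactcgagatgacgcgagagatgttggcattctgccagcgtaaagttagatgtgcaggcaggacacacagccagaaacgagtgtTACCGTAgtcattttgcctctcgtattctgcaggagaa
rpl-15 (chrIV:654842-655042, minus strand): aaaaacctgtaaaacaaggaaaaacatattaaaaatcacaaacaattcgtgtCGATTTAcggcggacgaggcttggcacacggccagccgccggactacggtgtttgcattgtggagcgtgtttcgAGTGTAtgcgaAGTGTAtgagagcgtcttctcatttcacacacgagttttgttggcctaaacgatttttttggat

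The word AGTGTA (either strand) was in 4 of the 5 thresholded member windows, all but that of rpl-11.2, and occurred more than once in 3 of them. Among thresholded windows at the promoters of other genes it was in 10 of 109, or 9.17%, and more than once in 0. In rpl-3 it began 3 bases before and 5 bases after the summit, and in rpl-35 it began 6 bases after. In rps-1 and rpl-15 a pair of copies began 11 bases apart. Of the 12 members with a region among the 1000 strongest, 5 held it, against 26 of 324 windows of other genes at that strength (8.02%). Below rank 1000 it was in 1 of 34 member windows, or 2.94%, against 7.59% of those of other genes. The 5 windows among the 1000 strongest are the 4 thresholded ones that led to the word and that of rpl-15. The difference by strength is therefore no separate evidence.

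TACGGTA was also in 4 of the 5 thresholded member windows, all but that of rpl-35, against 4 of 109 windows of other genes (3.67%). Over the strongest pooled windows of the members it was in 8 of 46, or 17.4%, against 2.64% of those of other genes. TAAATCG was in 8 of 46, or 17.4%, against 2.60%, including the windows of rpl-20, rpl-15 and rpl-23. These words were picked by reading these windows, so their shares there are a description with no test. AGTGTA can share its last letters with the first of TACGGTA, though no marked words overlap in the windows shown, and a match is not shown to be a binding site.

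The same words were counted in the stretch from 500 to 200 bp upstream of every protein-coding gene, whether or not it had a region. TACGGTA was there in 15 of 78 members (19.2%) and 4.58% of all genes, and TAAATCG in 17 of 78 (21.8%) and 4.88%. TAAATCG was there in 8 of the 30 members with no pooled region, or 26.7%, and in 1 of the 5 with a thresholded one. AGTGTA was there in 9 of 78 members, or 11.5%, close to the 10.9% of all genes. The stretch includes the summits of all 5 thresholded members, so these counts hold the same copies that led to the words and are no separate evidence. From 250 bases before to 50 after the 5′ end the shares were TACGGTA 7.69% of members and 4.10% of all genes, TAAATCG 7.69% and 4.68%, and AGTGTA 3.85% and 10.8%.

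The NK-2 site, the sequence bound by CEH-22 (TCAAGTG, or with its second letter changed TTAAGTG, either strand), was in none of the 5 thresholded member windows. It was in 5 of 109 thresholded windows at the promoters of other genes, or 4.59%, so 5 windows are too few to show a difference. In the pooled list it was in 2 of 46 member windows (4.35%, Wilson interval 1.20 to 14.5), those of rpl-21 and rpl-32, against 5.41% of 4658 windows of other genes. Over the full width of a region it was in 6 of 46 member regions (13.0%, interval 6.12 to 25.7), against 8.48%, so the order of the shares depended on the width and the interval held the share of other genes at both. The shorter core AAGTG, which is part of the NK-2 site and can overlap AGTGTA, was in 22 of 46 member windows, or 47.8%, against 41.8%. In the thresholded list the core was in all 5 member windows (Wilson interval 56.6 to 100), against 50 of 109 windows of other genes (45.9%). The core was among the short words described after these values were seen, so this is a description with no test. The repeat word GAGAGA was in 9 of 46 (19.6%) against 19.9%. The median GC content of the pooled windows was 42.3% for members against 38.8% for other genes, and in the thresholded list the order was the reverse, 45.3% against 49.8%.

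Of the 78 genes, 48 had a region in the pooled list. This was 61.5% (Wilson interval 50.4 to 71.6), against 24.6% of all protein-coding genes. The strongest regions of these members had signal values from 10.2 to 59.8, in a list from 9.33 to 454. As a ratio, their share stood further above that of all genes when only strong regions were considered. In percentage points the gap was widest over the whole list. Among the 1000 strongest pooled regions, 12 members (15.4%) had one, against 2.09% of all genes. Among the 2000 strongest it was 20 members (25.6%) against 3.56%, and among the 5000 strongest 29 members (37.2%) against 7.68%. Among the 10000 strongest it was 35 members (44.9%) against 13.9%. The median of the members with a pooled region was at 14.5% of the list counted from the strongest, against 43.8% for all protein-coding genes with a region. In the list of replicate 1 it was 18.3% against 44.1%, and in that of replicate 2, without replicate 1, it was 24.7% against 45.1%. Members with a region had 1.27 regions per window on average, against 1.11 for other genes, and a gene with more regions has more chances of a strong one.

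**Figure D1:**
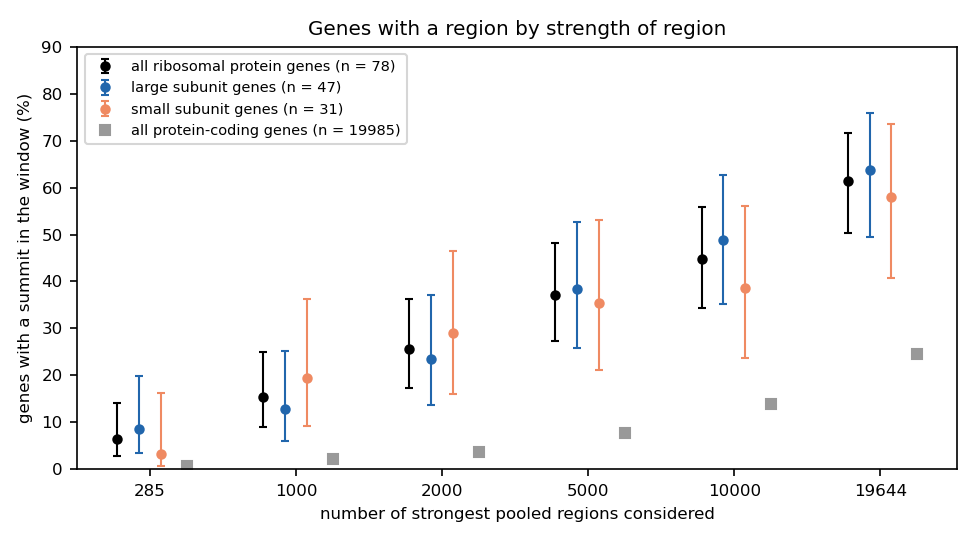
Share of genes (%) with a summit in the window as more of the pooled regions are considered, from the 285 of the thresholded list to all 19644. Circles are all ribosomal protein genes, then large and small subunit genes, with 95% Wilson intervals, and squares are all protein-coding genes. At 1000 regions the family is at 15.4% and all genes at 2.09%, and the intervals of the subunits overlap at every step.

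The next strongest members came from both subunits. After rps-12 (signal value 29.8, rank 356) and rpl-15 (29.1, rank 374) followed rps-28 (26, rank 538), rpl-23 (25.1, rank 604), rps-24 (24.5, rank 661), rps-4 (23.7, rank 728) and rps-26 (22.3, rank 927). The yeast counterpart of rps-26 sits where the messenger RNA leaves the small subunit. The rps-4 summit lay 155 bp downstream of the 5′ end, in a coding exon of the gene itself, and the others lay 163 to 597 bp upstream. The rps-26 summit lay in an exon of the neighbouring gene tmem-107 and within 200 bp of a snoRNA gene, and the part of that gene in the signal was not tested.

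**Figure D2:**
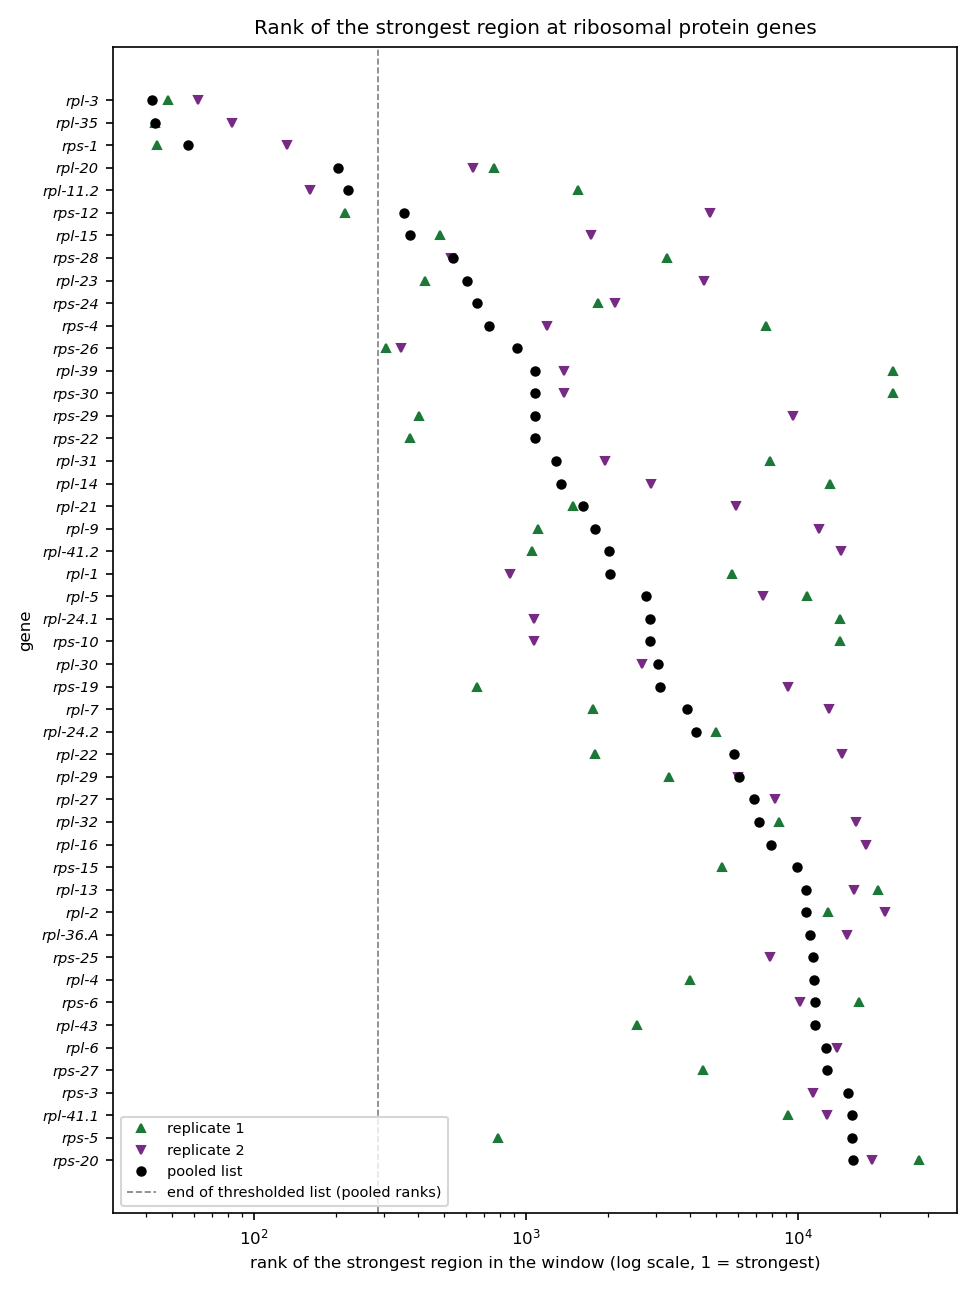
Rank of the strongest region in the window of each of the 48 genes with a pooled region, on a log axis with rank 1 the strongest, in the pooled list (circles), replicate 1 (upward triangles) and replicate 2 (downward triangles). The genes rpl-3, rpl-35 and rps-1 have low ranks in both replicates. Below them the replicates lie far apart for many genes, such as rps-12 at 215 and 4736, and close for some, such as rps-26 at 304 and 346.

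The intervals of large and small subunit genes overlapped in every count. A pooled region was found at 30 of 47 large subunit genes (63.8%, Wilson interval 49.5 to 76.0) and 18 of 31 small subunit genes (58.1%, interval 40.8 to 73.6). Thresholded summits were at 4 of 47 (8.51%, interval 3.36 to 19.9) and 1 of 31 (3.23%, interval 0.572 to 16.2). Among the 1000 strongest pooled regions the order was the other way, with 6 of 47 large subunit genes (12.8%) and 6 of 31 small subunit genes (19.4%). The median position in the pooled list was 15% for large and 10% for small subunit genes with a region. With intervals this wide, a difference between the subunits was not detectable, which does not show that they are bound alike.

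The replicates each placed a region at most of the family but ranked the genes differently. Replicate 1 had a region at 54 members (69.2%, against 35.3% of all genes) and replicate 2 at 53 (67.9%, against 34.2%). Both had one at 41 members, or 52.6%, against 16.6% of all genes. The strongest replicate 1 summit lay within 200 bp of some replicate 2 summit in the same window at 29 members (37.2%, against 9.38% of all genes). Taking any summit of either replicate it was 31 members (39.7%, against 10.1%). These shares are over all genes, and more members than other genes had a region in both replicates. Among genes with a region in both, the first count was 29 of 41 members and 1874 of 3318 protein-coding genes, a smaller gap. The strongest summits of both replicates lay that close at 23 of 41 members, for which no share of all genes is given here. Over the 41 members Spearman's rho between the ranks was 0.293, and over the 3318 protein-coding genes with a region in both it was 0.258. Among the 285 strongest regions of replicate 1 were those of 4 members (5.13%, against 0.746% of all genes), rps-12 beside rpl-3, rpl-35 and rps-1. Among the 285 strongest of replicate 2 were also 4 (5.13%, against 0.605%), with rpl-11.2 in place of rps-12. The replicates thus shared their 3 strongest chromosome III genes and differed in the next. Among the 1000 strongest there were 12 members in replicate 1 (15.4%, against 2.16%) and 8 in replicate 2 (10.3%, against 1.73%). The 5 in both (6.41%, against 0.771%) were rpl-3, rpl-35, rps-1, rpl-20 and rps-26. Among the 2000 strongest there were 20 in replicate 1 (25.6%, against 3.71%), 15 in replicate 2 (19.2%, against 3.04%) and 7 in both (8.97%, against 1.09%). The correlations are descriptions over genes of the same pair of libraries, and some neighbouring genes share a region.

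Several members ranked far apart between replicates, and in some the strongest summits were different ones. The small subunit gene rps-12 ranked 215 in replicate 1 and 4736 in replicate 2, rps-29 ranked 404 and 9553 at summits 305 bp apart, and rps-22 ranked 375 in replicate 1 and had no region in replicate 2. In the other direction, rps-28 ranked 3293 in replicate 1 and 528 in replicate 2 at summits 415 bp apart, and rpl-11.2 ranked 1548 and 160 at summits 1 bp apart. The rps-26 gene was even, at 304 and 346, but its strongest summits lay 397 bp upstream in replicate 1 and 642 bp upstream in replicate 2. Over the 41 members the median distance between the strongest summits of the replicates was 120 bp.

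**Figure D3:**
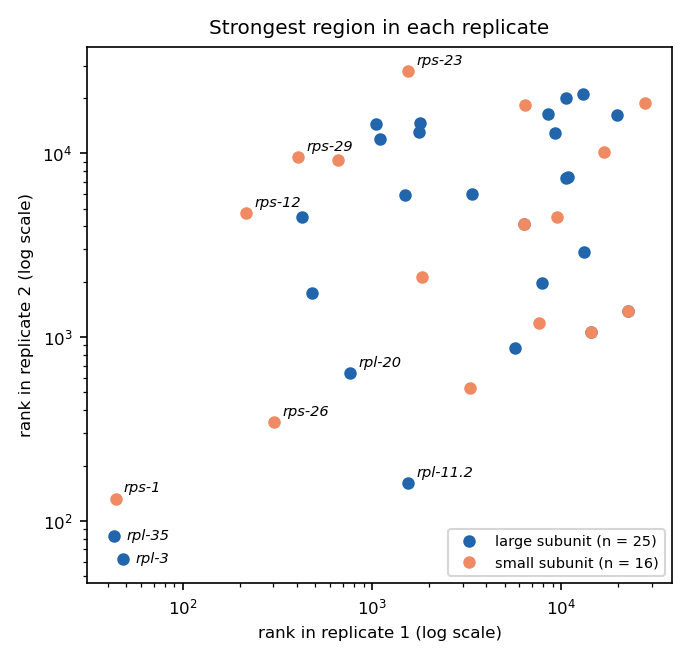
Rank of the strongest window region in replicate 1 (x axis) and replicate 2 (y axis), both on log scales, for the 41 ribosomal protein genes with a region in both; blue is the large and orange the small subunit. Points of gene pairs that share a region coincide. The genes rpl-3, rpl-35 and rps-1 stand in the corner of low ranks in both, and most other genes scatter widely.

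The summits were more often 200 to 500 bp upstream of the genes than those of other genes, though many lay elsewhere. Of the 48 strongest pooled summits, 27 (56.2%) lay 200 to 500 bp upstream of the annotated 5′ end, against 26.6% for the other protein-coding genes with a region. None of the 48 lay in the 100 bp just upstream, against 9.68% for the other genes, and 4 lay downstream (8.33% against 16.8%). The share at 200 to 500 bp upstream was 61.1% in replicate 1, against 25.9% for other genes, and 45.3% in replicate 2, against 26.2%. In replicate 2, 10 of 53 member summits lay 0 to 200 bp downstream, or 18.9%, close to the 17.0% of other genes. The median positions were close, 324 bp upstream for members and 334 bp for other genes, and the other genes were spread over the whole window.

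**Figure D4:**
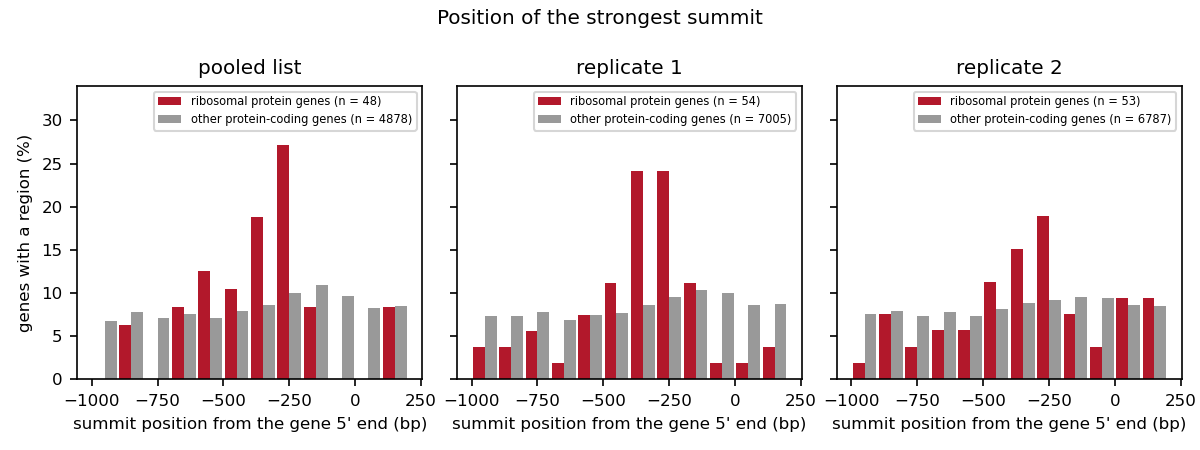
Position of the strongest summit from the gene 5′ end in bins of 100 bp, as a share (%) of genes with a region, for ribosomal protein genes (red) and other protein-coding genes (grey), in the pooled list, replicate 1 and replicate 2. The red bars are tallest in the bins that start at -400 and -300 bp in each panel and the grey bars are nearly level.

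The annotated 5′ end need not be the start of transcription where a message is trans-spliced. TTTTCAG, the consensus of nematode splice acceptors, lay on the strand of the gene within 50 bases of the 5′ end in 33 of 78 members (42.3%), against 16.4% of all protein-coding genes. It was there for 22 of 47 large and 11 of 31 small subunit genes (46.8% and 35.5%). In the span from 250 bases before to 50 after the 5′ end, TATAAA (either strand) was in 21 of 78 members (26.9%) and 38.0% of all genes, and the NK-2 site in 3 of 78 (3.85%) and 6.11%. The part of trans-splicing in the position of the summits was not tested.

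Many of the summits lay between the member and a neighbouring gene. Of the 48 strongest pooled summits, 32 (66.7%) also fell in the window of another protein-coding gene, against 26.7% for other genes. The member's own 5′ end was the nearest for 31 of 48 (64.6%), against 80.1% for other genes. Which of the neighbours a region belongs to cannot be told apart from its position. The rps-1 region was also in the window of ifet-1 and that of rpl-15 in the window of K11H12.8, while those of rpl-3, rpl-35 and rpl-11.2 lay in the window of no other gene. By location, 34 of 46 distinct regions had their summit in intergenic DNA, 6 in an intron, 5 in a coding exon and 1 in the non-coding part of an exon. The intergenic share was 73.9%, against 56.6% for window regions of other genes.

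Some members neighbour each other head to head and share a region. The genes rpl-39, whose product lines the exit tunnel of the large subunit, and rps-30 of the small subunit start 499 bp apart on chromosome V. They shared a pooled region of signal value 21.4 and rank 1076, which ranked 22392 in replicate 1 and 1383 in replicate 2. A weaker pooled region, of rank 8413, was also shared by them. The genes rps-10 and rpl-24.1 start 610 bp apart and shared a pooled region of rank 2856, in an intron of rpl-24.1 within 200 bp of a snoRNA gene. They also shared a weaker pooled region between their 5′ ends, of rank 5132. Near it, regions shared by both genes ranked 14282 in replicate 1 and 7915 in replicate 2. The genes rps-14 and rpl-36 start 663 bp apart and had no pooled region, but shared one between them in replicate 1 (rank 6340) and another, 85 bp inside rps-14, in replicate 2 (rank 4142).

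Paralogous genes had different pooled or replicate ranks within pairs, and in some pairs the order depended on the replicate. The X-linked rpl-11.2 had a thresholded region, while its autosomal copy rpl-11.1 on chromosome V had no region in the pooled list or replicate 1 and one of rank 7662 in replicate 2. The X-linked rpl-25.1 had no region in any list, and rpl-25.2 on chromosome I had one of rank 19430 in replicate 2 alone. The genes rpl-41.1 and rpl-41.2, which start 1102 bp apart on chromosome I, had pooled ranks of 15738 and 2012. Their ranks were 9209 and 1049 in replicate 1, and 12820 and 14423 in replicate 2, the other order. The genes rpl-24.1 and rpl-24.2 had pooled ranks of 2856 and 4215. In replicate 1 they ranked 14282 and 5001, and in replicate 2 only rpl-24.1 had a region, at rank 1066. These are values of single genes, and no test was made between copies.

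The family was spread over all 6 nuclear chromosomes, unevenly. Chromosome III held 18 members, of which 12 (66.7%) had a pooled region, against 29.3% of its protein-coding genes. The median of those members was at 5.5% of the list, against 43.4% for all genes there with a region. Chromosome I held 23 members, of which 18 (78.3%) had a pooled region, against 28.4% of its genes, with medians of 17.9% and 39.9%. None of the 23 was thresholded, against 0.938% of the genes there, so they are too few to show a difference. On chromosome IV a pooled region was at 8 of 17 (47.1%, against 22.5%), with a median at 3.54% of the list, against 43%. On chromosome II it was 5 of 10 (50%, against 25.3%), on V 4 of 8 (50%, against 19.6%) and on X 1 of 2, against 27.1% of the genes there. The medians on II (36.7%, against 44.6%) and V (30.1%, against 50.6%) were further down the list than those on I, III and IV. In all, 66 members (84.6%) had a summit in at least 1 of the lists, against 53.6% of all protein-coding genes. The 12 with none were rpl-17, rpl-18, rpl-19, rpl-25.1, rpl-33, rpl-37, rpl-38 and rpl-42 of the large subunit and rps-9, rps-17, rps-18 and rps-21 of the small subunit.

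Other genes of the translation machinery were counted beside the family. Of 6 elongation factor genes, which bring tRNA to the ribosome and move it along, 5 had a pooled region (83.3%, Wilson interval 43.6 to 97). The median of these 5 was at 6.05% of the list, nearer the top than that of the ribosomal protein genes. With so few genes and an interval this wide, a difference from the ribosomal protein genes is not shown. The eef-1A.2 region was thresholded, 296 bp upstream, at rank 121 in the pooled list, 169 in replicate 1 and 167 in replicate 2. Of 34 initiation factor genes, 21 had a pooled region (61.8%), and iff-2 a thresholded one 64 bp upstream, at ranks 96, 52 and 423. The median position of the initiation factor genes was 47.7% of the list, near that of all genes. Of 70 mitochondrial ribosomal protein genes, 21 had a pooled region (30.0%, Wilson interval 20.5 to 41.5) and none a thresholded one, with a median at 50%. The mitochondrial genes were thus close to the 24.6% of all protein-coding genes. Of 6 cytosolic ribosomal proteins with other names (rla-0, rla-1, rla-2, rack-1, ubl-1 and ubq-2), 3 had a pooled region, and of 12 ribosome biogenesis genes 4 had one, none of them thresholded.

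**Figure D5:**
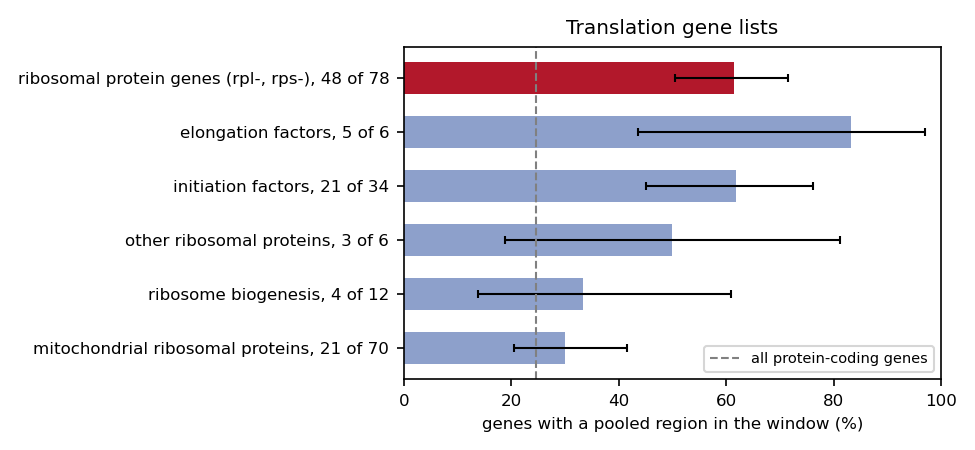
Share of genes (%) with a pooled region in the window for ribosomal protein genes (red) and 5 other lists of translation genes (blue), with 95% Wilson intervals; the dashed line is the 24.6% of all protein-coding genes. Mitochondrial ribosomal protein genes lie near the line, at 30.0%, and cytosolic ones at 61.5%.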

How the data were processed

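ChIP-seq lists of CEH-22 in late embryos were analysed for 1 group of 2 biological replicates. Per the deposited file listing, each relaxed list derives from the alignments of its replicate or of both, and the relaxed lists were the input for IDR, a reproducibility filter. Aligner and peak caller: not given in the sources used here. Each region's deposited signal value is a score on an unstated scale, used for ranks within a list. The summit offset, another deposited column, gave positions. The thresholded list's 285 regions were those ranked highest by signal value among the pooled ones, as checked here. The ce10 lists, signal tracks and controls were not used here. Depth is unknown.

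Gene models came from Ensembl release 115 and sequence from RefSeq, both WBcel235 (ce11), with coordinates 1-based. The 5′ end was the outer end of the gene span, and the strongest region in the window stood for a gene. Features of a region were read in 201-base windows on the summit. Counts carry 95% Wilson intervals (scipy 1.17.1, Python 3.11.15) and no test between gene sets was made. The assignment was checked on simulated summits. The members, lists and alternatives were chosen with earlier results of these data known, and the cuts at 1000 to 10000 regions, the position bins and the short words described after seeing these values. One listed biogenesis gene, nol-1, matched no annotated name. Named genes were members with a thresholded summit, the 12 strongest pooled and 5 strongest in each replicate, dotted paralogs, members in no list, and ceh-22; other names were chosen after their values were seen. The sequence of a further strong member window is not reported here.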

Additional observations from a re-analysis of the deposited data

How the results depend on the processing

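No paired analysis was possible because there is 1 group and no comparison between groups. The number of members with a thresholded summit was 5 with windows of 500 bp upstream to 100 downstream and 2000 to 500, with transcript 5′ ends and without summits near short non-coding RNA genes. It was 4 with only the nearest 5′ end and 3 in the 142 strongest regions of the list. With the 285 strongest regions of 1 replicate alone it was 4 in each. The number with a pooled region ranged between 33 (nearest 5′ end only) and 63 (the wide window), within 1.5 times the 48 reported, as did those of large (21 to 38) and small subunit genes (12 to 25). Shares of all protein-coding genes under these window and 5′ end settings are not given here. The counts therefore do not show whether the difference from all genes held. The median position moved to 19.9% with the wide window and to 18.3% and 24.7% in the lists of replicate 1 and replicate 2 alone. Of the 29 members whose strongest replicate 1 summit had a replicate 2 summit within 200 bp, 15 had one within 50 bp and 23 within 100 bp. With any summit of either replicate, added after seeing the data, it was 31. The NK-2 share was 2.17% of member windows within 50 bp of the summit, against 2.75% for other genes, and 13.0% against 8.48% over the full width of a region. The count of 5 strong member windows with AGTGTA was the same at both widths, alternatives that were added after seeing the data. With unknown depth and wide intervals, differences between subunits or single genes could not be resolved.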

Other observations

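Inside the gene bodies of the family, no region was among the thresholded. No such summit lay between the start and end of any of the 78 genes, against 0.450% of all protein-coding genes. At that share, 78 genes are too few to show a difference. A pooled summit lay inside 23 of them (29.5%), against 39.3% of all genes, whose median length is 2026 bp where that of the members is 753 bp. The strongest were in rps-4 (rank 728, 155 bp from the 5′ end), rpl-31 (rank 1289, 182 bp) and rpl-24.1 (rank 2856, 199 bp), which the window also counts. Of the 12 members with no region in any window, rpl-17, rpl-19, rpl-25.1 and rpl-33 had pooled regions inside the gene, at ranks from 7307 down to 19419.

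Small nucleolar RNAs, which guide the modification of ribosomal RNA, are often encoded in introns of ribosomal protein genes. In this annotation 13 of the 78 genes contained 19 snoRNA genes. A pooled region lay in the window of 9 of these 13 and of 39 of the other 65 members, and the median position was 14.5% of the list in both. Thresholded regions were at 0 of the 13 and 5 of the other 65, too few to show a difference.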
